A study of Mus musculus with 6 samples.

Results

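The enzymes that hold reactive oxygen and electrophiles in check were followed in C0321 mammary tumors of mice given sulindac sulfide (SS). With them were read the methionine sulfoxide reductases, which are linked to the reduction of sulindac to its sulfide. The set was a list of 41 gene symbols grouped by function. The rule that selects them uses no measured value, although the list was written with earlier results of these data known. A member was taken from the count table where the gene symbol matched, which gave 38 of the 13730 genes in the table. Gsta4, Mgst1 and Msrb2 had no row under their symbols, and their expression was not analysed here. RNA came from 6 tumors, 3 of them from control mice and 3 from mice that received SS at 60 mg/kg by mouth every day for 14 days after a palpable mass had formed. All mice were females of FVB, the strain from which C0321 comes. They were 6 to 10 weeks old when C0321 cells mixed with Matrigel were placed in the mammary fat pad. C0321 is a single TNBC line derived from a Lunatic Fringe (Lfng) knockout mouse, so all 6 tumors share that background. The sample labels call the drug a sulfate where the study calls it sulindac sulfide, and the control is called saline in the series description and vehicle in the study's text. The replicate numbers 1 to 3 name different mice, so the spread between them includes the differences between animals.

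NRF2, encoded by Nfe2l2, is a transcription factor that KEAP1 marks for degradation until electrophiles or oxidants modify KEAP1. NRF2 then pairs with small MAF proteins on antioxidant response elements in front of genes for glutathione synthesis, conjugation, thioredoxin recycling and NADPH supply. Sulindac is a sulfoxide prodrug. Methionine sulfoxide reductases are linked to its reduction to SS, the form dosed here, and the study assigns the metabolism of sulindac to liver enzymes and colonic bacteria. Flavin monooxygenases can oxidise the sulfide back.

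Library totals ranged from 8468914 to 24441522 counts, with a median of 20486368 in control and 12071346 in SS tumors, and the 38 members together held between 0.117% and 0.129% of the counts of a tumor. Values are given as CPM, counts of a gene per 1000000 counts of the TMM-scaled library. Skeletal muscle genes (5 of 5 listed were present) summed to between 1196 and 10583 CPM in control tumors and between 376 and 21162 CPM in SS tumors. The 5 erythroid genes present of 6 listed summed to between 1888 and 3922 CPM in control and between 852 and 1932 CPM in SS tumors. All 5 were fitted lower in SS tumors, 4 of them at an unadjusted p under 0.05 and with an adjusted p of 0.771 in edgeR, and fewer red cells and less RNA per red cell cannot be told apart in bulk tumors. Of the receptor genes that define TNBC, Esr1 lay between 4.47 and 6.40 CPM, Pgr between 0 and 3.81 CPM and Erbb2 between 17.03 and 22.3 CPM, while the epithelial keratin gene Krt8 lay between 417 and 544 CPM. Lfng, which the host cells of a tumor still carry, lay between 4.64 and 6.40 CPM. Ahnak, whose mRNA is very long, held between 4.36% and 5.74% of the counts, whereas B2m, a short mRNA of nearly all nucleated cells, lay between 1.66 and 3.84 CPM. The part of mRNA length in the levels below, including those of Sod1 and Txn1, was not tested.

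No member passed the test between the groups. With the quasi-likelihood test of edgeR and Benjamini-Hochberg adjustment over 10902 genes, 0 of the 33 members tested had an adjusted p under 0.05, beside 0% of all genes, and the members' adjusted p-values ran from 0.792 to 0.996. At an unadjusted p under 0.05 there were 0 members higher, where 3.19% of all genes were, and 0 lower, where 3.16% of all genes were. DESeq2 and limma-voom with sample weights also called 0 members at either threshold, although DESeq2 called 37 of all genes after adjustment and edgeR had 693 genes at the unadjusted threshold. The other 5 members present, Nqo1, Gstt1, Gstz1, Mgst3 and Prdx3, had between 13 and 44 counts over all 6 tumors and did not pass the filter on low counts.

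Most fitted changes were small. Of the 33 members tested, 18 were fitted higher and 15 lower in SS tumors, 27 lay within 0.3 of 0 on the log2 scale, and their median log2 fold change was 0.030, beside -0.0013 over all genes tested. Without SS tumor 2 the median was -0.034 and without control tumor 1 it was -0.0049. In 31 of the 33 the control and SS tumors overlapped in CPM. Msra was the only one tested in which every SS tumor lay above every control tumor, where 6.51% of all genes did, and Prdx6 the only one in which every SS tumor lay below, where 6.4% of all genes did. The 95% interval of the change stayed within 2-fold in either direction for 24 of the 33 and within 1.5-fold for 14, Nfe2l2, Gclc, Gclm, Gpx1, Gstp1, Txnrd1, Prdx1, Prdx4, Prdx5, Prdx6, Sod2, Cat, Pgd and Msrb1. The 9 members whose interval reached past 2-fold were Hmox1, Gsr, Gpx8, Gstm5, Gsto1, Txnrd2, Sod3, Srxn1 and Msra, for which a 2-fold difference could not be told from none with 3 tumors a group.

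**Figure D1:**
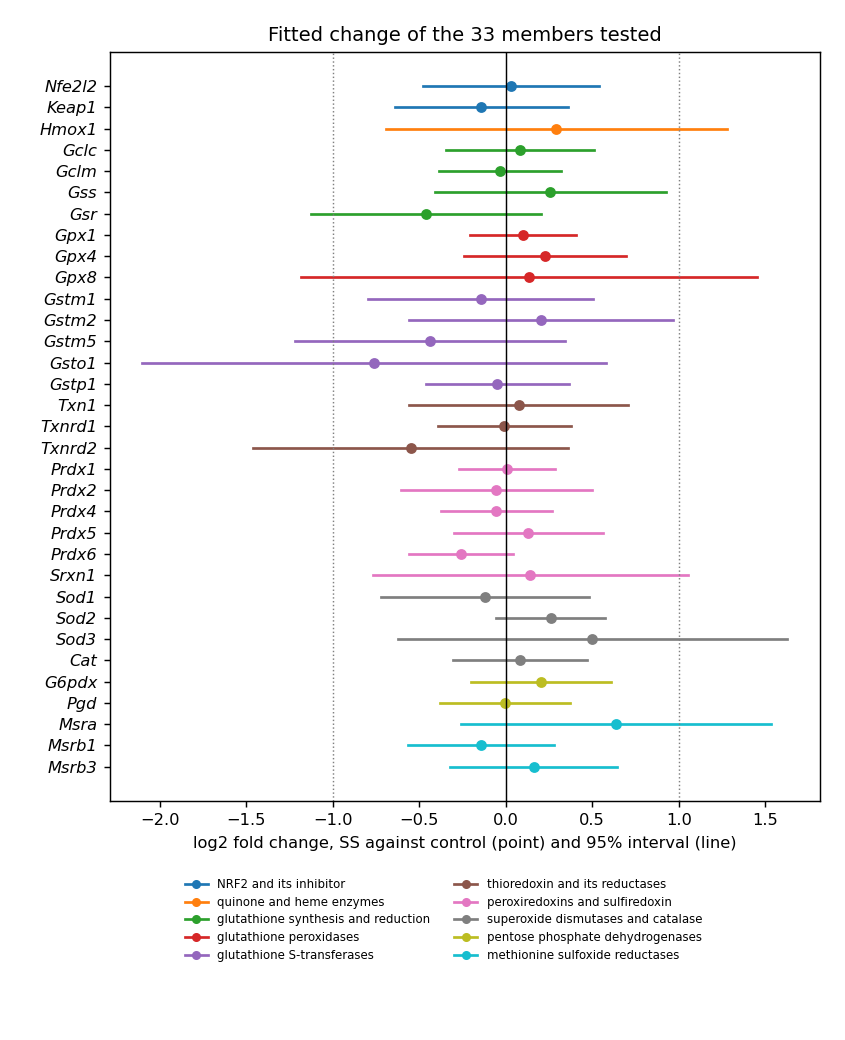
Log2 fold change of SS against control tumors (x axis) for the 33 members tested, ordered and coloured by role; points are the edgeR estimates, lines their 95% intervals and dotted lines a 2-fold difference. Every interval crosses 0, and the line of Sod2, from -0.056 to 0.58, and that of Prdx6, from -0.56 to 0.044, come closest to leaving it.

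Levels between genes were compared per kilobase of transcript. For Gpx1 and Pgd a length was known for 1 transcript only. That transcript alone put Gpx1, a glutathione peroxidase, at 263 CPM per kilobase as the mean of the 6 tumors (215 to 320), above every other member, and Pgd at 8.35 CPM per kilobase. Of the 36 members with all lengths known, Prdx1, a peroxiredoxin, was highest at 79.1 CPM per kilobase, followed by Prdx4 at 56.4, Gstm1 at 39.5, Gstp1 at 35.3, Prdx6 at 29.3 and Msrb1 at 28.1 CPM per kilobase. Nqo1, a quinone reductase and a widely used NRF2 target, lay among the lowest at 0.196 CPM per kilobase, and Mgst3 was last at 0.106. Of the reductases of methionine sulfoxide, Msrb1 was well above Msrb3 at 2.79 and Msra at 1.78 CPM per kilobase.

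The reference promoters show which members carry an antioxidant response element core close to their start. RefSeq windows on GRCm38.p6, from 250 bases before to 50 bases from the start site, were present for 34 of the 41 members, all but Hmox1, Gclc, Gsr, Gsta4, Msra, Prdx6 and Sod3. The core TGACNNNGC was searched on both strands, and so was the AP-1 motif TGACTCA, whose other strand reads TGAGTCA. The core was found for 11 of these 34 genes (G6pdx, Gclm, Gstm5, Mgst1, Msrb2, Nfe2l2, Pgd, Prdx1, Sod1, Srxn1 and Txnrd1), where 14% of 27025 genes and 12.4% of 32851 windows held it. The match of Pgd, on the minus strand, lies in the window of a transcript that starts near 149166083 on chromosome 4. The gene itself reaches to 149166705, so this match is well inside it and not at its outer start. TGACTCA was found for 4 members, Gstm5, Gstp1, Prdx1 and Srxn1, where 5.95% of genes and 5.2% of windows held it. The sequences below, read along each gene's own strand of the C57BL/6J reference and not of the FVB tumors, are 1 match each of 7 members, shown so that members of glutathione synthesis, conjugation, thioredoxin and peroxiredoxin recycling and NADPH supply can be set beside their tumor values. Capitals mark the matched letters, and other matches lie at the positions plotted.
Prdx1, core overlapping the AP-1 motif, chr4:116685441-116685499, plus strand: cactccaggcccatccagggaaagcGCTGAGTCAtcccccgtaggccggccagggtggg
Gclm, core, chr3:122245398-122245456, plus strand: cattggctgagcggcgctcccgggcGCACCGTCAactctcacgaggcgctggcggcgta
Txnrd1, core, chr10:82859089-82859147, plus strand: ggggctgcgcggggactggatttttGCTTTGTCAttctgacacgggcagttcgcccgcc
G6pdx, core, chrX:74428904-74428962, minus strand: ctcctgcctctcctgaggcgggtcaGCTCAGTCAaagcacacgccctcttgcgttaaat
Gstm5, core, chr3:107895787-107895845, plus strand: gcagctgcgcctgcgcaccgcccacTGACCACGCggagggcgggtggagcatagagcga
Gstp1, AP-1 motif, chr19:4037955-4038011, minus strand: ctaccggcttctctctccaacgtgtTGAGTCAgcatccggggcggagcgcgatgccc
Srxn1, AP-1 motif, chr2:152105397-152105453, plus strand: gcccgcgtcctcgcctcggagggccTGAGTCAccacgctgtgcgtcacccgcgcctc

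**Figure D2:**
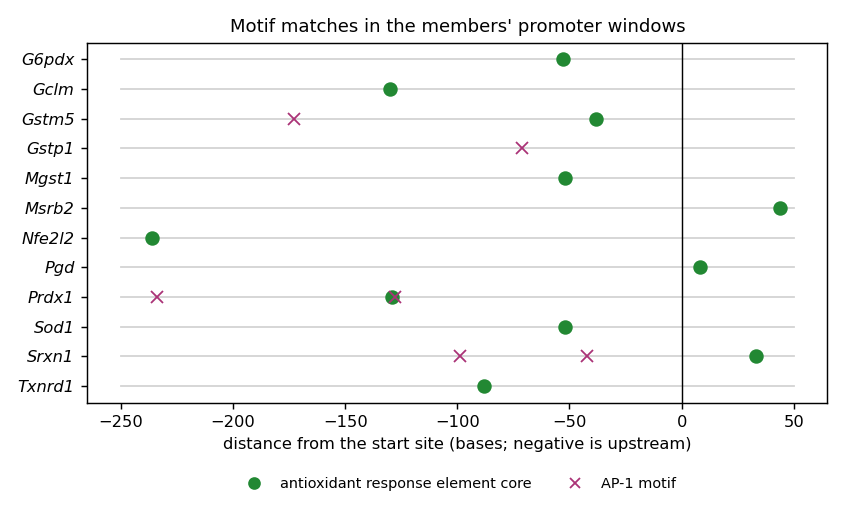
Distance in bases from the start site (x axis) of each match in the promoter windows of the 12 members with one; circles mark the antioxidant response element core and crosses the AP-1 motif. Most matches lie upstream, and in Prdx1 a core and an AP-1 motif coincide. Core matches of Msrb2, Pgd and Srxn1 lie just after the start site of the window, which in Pgd lies well inside the gene.

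A match is a run of letters and not a measured binding site. Bases outside the windows were not searched, so a member without the core here may carry one farther away. The 9 members with the core that were tested had log2 fold changes from -0.44 to 0.21 with a median of -0.0056, and the 18 tested that had a window without it ranged from -0.76 to 0.26 with a median of 0.078. The ranges overlapped, and all 27 were members that did not pass the test.

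Of the regulators, Nfe2l2 was at 24.2, 33.2 and 40.2 CPM in control tumors 1, 2 and 3 and at 28.3, 40.1 and 31.5 CPM in SS tumors 1, 2 and 3. Both groups spanned nearly the same range, and the log2 fold change was 0.03 ± 0.22 (SE, n = 3 tumors a group, here and below). Keap1, its inhibitor, was at 15.6, 15.7 and 10.3 CPM in control and 13.4, 11.7 and 12.5 CPM in SS tumors. Control tumor 3, with the lowest Keap1, also had the highest Nfe2l2, but the SS tumors lay between the control tumors for Keap1, with a log2 fold change of -0.14 ± 0.22.

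Among classical NRF2 targets, Hmox1, which breaks down heme, was at 13.7, 10.3 and 19.3 CPM in control and 8.48, 16.6 and 28.1 CPM in SS tumors. The SS tumors held both the lowest and the highest value. Its log2 fold change was 0.29 ± 0.42, and the 95% interval ran from -0.69 to 1.28. Nqo1 had few reads, with 4, 10 and 8 counts in control and 6, 0 and 3 counts in SS tumors. Fitted without the filter on low counts, it had a log2 fold change of -0.65 with an unadjusted p of 0.588 in edgeR.

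Glutathione is made in sequence by glutamate-cysteine ligase and glutathione synthetase and is kept reduced by glutathione reductase. Gclc, the catalytic subunit of the ligase, was at 40.03, 25.6 and 36.2 CPM in control and 37.4, 32.5 and 37.6 CPM in SS tumors. Gclm, its modifier subunit, whose promoter match is shown above, was at 23.4, 25.04 and 22.9 CPM and at 20.5, 23.2 and 26.0 CPM. Neither subunit parted the groups, with log2 fold changes of 0.08 ± 0.18 and -0.033 ± 0.15 and a Gclm that varied little from tumor to tumor. Gss, the synthetase, averaged 5.22 ± 1.04 CPM (SD) in control and 6.28 ± 1.32 CPM in SS tumors, and its log2 fold change was 0.26 ± 0.29. Gsr, the reductase, was at 6.87, 8.74 and 7.99 CPM in control and 7.32, 3.93 and 5.82 CPM in SS tumors. SS tumors 2 and 3 lay below all control tumors and SS tumor 1 did not, and the log2 fold change of Gsr was -0.46 ± 0.29, with an interval from -1.13 to 0.21.

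Glutathione peroxidases spend glutathione on hydrogen peroxide and lipid peroxides, and the 3 members were fitted slightly higher in SS tumors, none past the test. Of 2 further peroxidase genes tested, Gpx3, secreted to plasma, lay between 27.2 and 150 CPM with a log2 fold change of -0.10 ± 0.71, and Gpx7 had 0.12 ± 0.30. Gpx1, the cytosolic selenoenzyme, was at 345, 396 and 347 CPM in control and 437, 323 and 407 CPM in SS tumors. Its highest and lowest values were both in SS tumors, with a log2 fold change of 0.10 ± 0.13. Gpx4, which removes lipid hydroperoxides from membranes and guards against ferroptosis, was at 15.2, 19.1 and 22.5 CPM in control and 22.98, 25.2 and 18.5 CPM in SS tumors. SS tumors 1 and 2 lay above all control tumors and SS tumor 3 below controls 2 and 3, and the log2 fold change was 0.23 ± 0.20. Gpx8, of the endoplasmic reticulum, lay between 0.70 and 1.67 CPM with a log2 fold change of 0.14 ± 0.57.

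Of the glutathione S-transferases, which conjugate glutathione to electrophiles, 5 members were tested, 1 fitted higher and 4 lower. The 4 further genes of the family that were tested had log2 fold changes of 0.25 ± 0.35 (Gstt2), 0.03 ± 0.56 (Gstm4), -0.11 ± 0.49 (Gstt3) and -0.16 ± 1.63 (Gstm7). Gstm1 was at 59.8, 45.7 and 54.6 CPM in control and 29.2, 68.2 and 47.6 CPM in SS tumors. Gstm2 was at 28.7, 16.9 and 17.5 CPM in control and 14.4, 32.2 and 26.3 CPM in SS tumors. Both mu-class genes were lowest in SS tumor 1 and highest in SS tumor 2, so that the spread within the SS group exceeded the distance between the group means, with log2 fold changes of -0.15 ± 0.28 and 0.21 ± 0.33. Gstm5, a further mu-class gene, averaged 4.64 ± 0.71 CPM (SD) in control and 3.41 ± 0.93 CPM in SS tumors, with a log2 fold change of -0.44 ± 0.34. Gstp1, the pi-class enzyme, stood between 23.7 and 33.2 CPM in all 6 tumors, with a log2 fold change of -0.05 ± 0.18. Gsto1, an omega-class thioltransferase, was at 1.11, 1.82 and 2.05 CPM in control and 0.51, 0.83 and 1.604 CPM in SS tumors. It had the lowest fitted log2 fold change of the members tested, -0.76 ± 0.58, on few reads, and SS tumor 3 lay inside the control range. Its log2 fold change was -1.32 without SS tumor 3 and -0.44 without SS tumor 1. Gstz1, the maleylacetoacetate isomerase, had 7, 8 and 7 counts in control and 1, 3 and 0 counts in SS tumors, and Mgst3, a microsomal enzyme, had 0, 3 and 6 against 3, 0 and 1 counts. Without the filter on low counts, Gstz1 was fitted at -1.57 on the log2 scale, with an unadjusted p of 0.261 in edgeR, and that of Gstt1, of the theta class, was -0.49. The mu-class genes are close relatives, as are Gstp1 and Gstp2, and how the counting divided reads among such copies is not given in the sources used here.

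**Figure D3:**
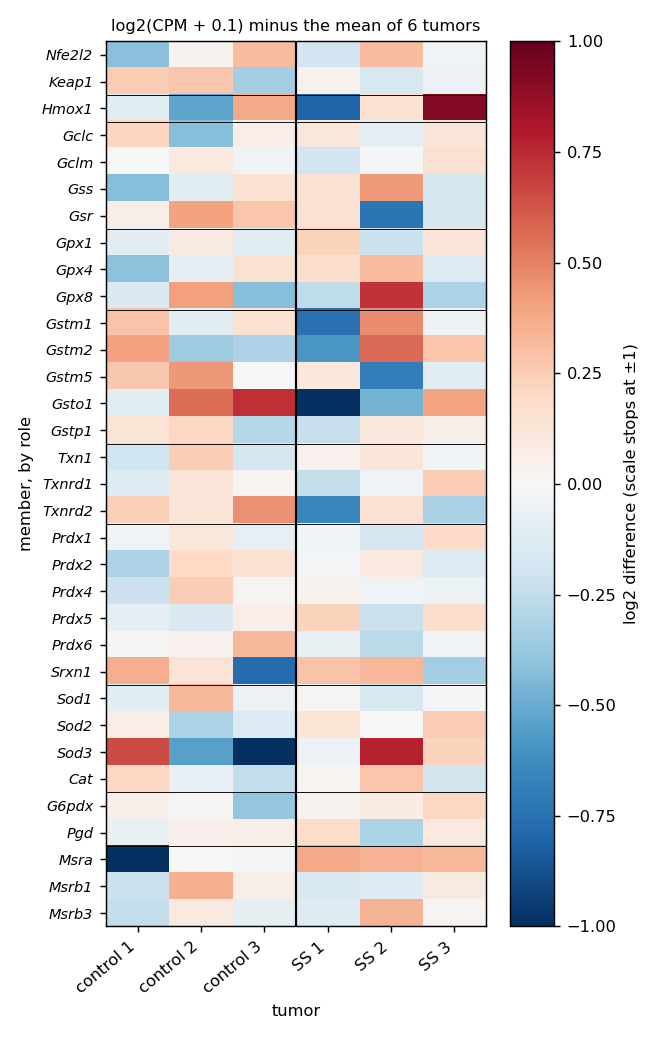
Each member's log2(CPM + 0.1) in each tumor less its mean over the 6 tumors (colour, stopping at 1 in either direction), by role; the vertical line parts control from SS tumors. The rows of Gstm1, Gstm2, Sod3, Hmox1 and Gsto1 vary within a group, and Msra is the row with 3 SS tumors above 3 control tumors.

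Thioredoxin reduces disulfides in target proteins and takes its electrons from NADPH through thioredoxin reductases. Txn1, the cytosolic thioredoxin, lay between 4.26 and 5.84 CPM in all tumors, with a log2 fold change of 0.07 ± 0.27. Txnrd1, its cytosolic reductase and an NRF2 target, was at 29.0, 35.0 and 32.5 CPM in control and 27.0, 31.0 and 37.99 CPM in SS tumors. The group means of Txnrd1, 32.2 ± 3.01 and 32 ± 5.55 CPM (SD), all but coincided, and the interval of its log2 fold change ran from -0.39 to 0.37. Txnrd2, the mitochondrial reductase, was at 2.92, 2.70 and 3.40 CPM in control and 1.52, 2.74 and 1.94 CPM in SS tumors. SS tumors 1 and 3 lay below all controls and SS tumor 2 just above control tumor 2, with a log2 fold change of -0.55 ± 0.39.

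Peroxiredoxins are thiol peroxidases that thioredoxin recycles. Prdx1, the most abundant peroxiredoxin per kilobase and the one whose core overlaps an AP-1 motif, was at 177, 196 and 171 CPM in control and 178, 161 and 206 CPM in SS tumors. Its log2 fold change was 0.0066 ± 0.12, and the interval from -0.27 to 0.28 was the narrowest of the members, so that 1.5-fold lay outside it in either direction. Prdx4, of the endoplasmic reticulum, averaged 56.8 ± 9.07 CPM (SD) in control and 54.8 ± 1.81 CPM in SS tumors. Prdx2, abundant in red cells, was at 5.84, 8.35 and 8.08 CPM against 7.18, 7.74 and 6.58 CPM, with a log2 fold change of -0.055 ± 0.24. The summed erythroid genes stood at 3922, 1888 and 2083 CPM in control and 852, 1932 and 1263 CPM in SS tumors, and their part in the level of Prdx2 was not tested. Prdx5, found in mitochondria and peroxisomes, had a log2 fold change of 0.13 ± 0.19, and the mitochondrial Prdx3 had only 5, 10 and 15 counts in control and 1, 6 and 7 counts in SS tumors.

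Prdx6 (GRCm38 by RefSeq, as below, chromosome 1, 161240112 to 161251210), a peroxidase that uses glutathione and also has phospholipase activity, had the smallest p of the members. It was at 67.0, 68.5 and 83.4 CPM in control tumors and at 63.0, 55.3 and 64.8 CPM in SS tumors. Every SS tumor lay below every control tumor, but the gap between SS tumor 3 and control tumor 1 was narrow. The log2 fold change was -0.26 ± 0.13, and edgeR gave it an unadjusted p of 0.0839, which became 0.792 after adjustment. Its sign held in every alternative fit, between -0.32 and, without control tumor 3, -0.15. Sulfiredoxin (Srxn1), which repairs overoxidised peroxiredoxins, was at 5.61, 4.76 and 2.501 CPM in control and 5.29, 5.48 and 3.38 CPM in SS tumors, so that tumor 3 was lowest in both groups, and its log2 fold change was 0.14 ± 0.39.

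Superoxide dismutases turn superoxide into hydrogen peroxide, which catalase splits. Sod2, the mitochondrial dismutase (chromosome 17, 13007839 to 13018119), was at 64.4, 49.3 and 55.8 CPM in control and 67.9, 61.3 and 73.6 CPM in SS tumors. SS tumors 1 and 3 lay above all control tumors and SS tumor 2 below control tumor 1, with a log2 fold change of 0.26 ± 0.14 and an unadjusted p of 0.0942 in edgeR. Sod3, the secreted dismutase, was at 7.66, 3.29 and 2.296 CPM in control and 4.64, 8.34 and 5.66 CPM in SS tumors, with a log2 fold change of 0.50 ± 0.49. These were the 2 members whose side of the unadjusted threshold turned on a single tumor. Without control tumor 1, edgeR gave Sod2 a log2 fold change of 0.36 with an unadjusted p of 0.038 and Sod3 one of 1.14 with an unadjusted p of 0.024, while 0 members passed adjustment. Sod1, the cytosolic dismutase, lay between 4.88 and 6.87 CPM, with a log2 fold change of -0.12 ± 0.26. Cat, catalase, was at 62.0, 50.8 and 45.1 CPM in control and 54.7, 65.0 and 47.4 CPM in SS tumors, and its log2 fold change was 0.08 ± 0.17.

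Sod3 was highest in control tumor 1 and SS tumor 2, the tumors in which the summed genes of fat and vessel cells were also highest, though not each gene of those lists. The 6 adipocyte genes present of 7 listed summed to 56.0, 2.21 and 1.39 CPM in control and 17.8, 27.6 and 2.19 CPM in SS tumors, with Adipoq between 0 and 0.60 CPM. The 4 endothelial genes present of 5 listed summed to 68.1, 52.5 and 39.7 CPM in control and 45.8, 93.4 and 44.0 CPM in SS tumors, with Pecam1 between 0 and 0.60 CPM and Kdr, at 10.4 CPM in control tumor 1 and 7.27 CPM in SS tumor 2, not among the highest in the latter. Gstm1, Gstm2, Cat and, by a narrow margin, Srxn1 were also highest in these tumors. The part of these cells in the levels of Sod3, Gstm1, Gstm2, Cat and Srxn1 was not tested.

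The oxidative branch of the pentose phosphate pathway supplies the NADPH on which glutathione and thioredoxin recycling run. G6pdx, its first enzyme, was at 20.4, 19.8 and 15.0 CPM in control and 20.2, 20.7 and 22.7 CPM in SS tumors. Control tumor 3 lay apart from the other 5, and the log2 fold change was 0.21 ± 0.17. Pgd, the third enzyme of the branch, averaged 33 ± 1.64 CPM (SD) in control and 32.8 ± 5.85 CPM in SS tumors, with a log2 fold change of -0.0056 ± 0.16.

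The methionine sulfoxide reductases are the members listed for their link to sulindac reduction. Msra (chromosome 14, 64122621 to 64455903) reduces the S form of methionine sulfoxide and also the sulfoxide of sulindac. It was at 1.5, 3.14 and 3.12 CPM in control tumors and at 4.13, 4.05 and 3.97 CPM in SS tumors. The 3 SS tumors were nearly equal and lay above all controls, control tumor 1 was low, and the group means were 2.59 ± 0.94 and 4.05 ± 0.08 CPM (SD). The log2 fold change of 0.64 ± 0.39 had a 95% interval from -0.26 to 1.53 and an adjusted p of 0.833 in edgeR. It stayed positive in every alternative fit, from 0.37 without control tumor 1 to 0.80, but passed the unadjusted threshold in 0 of 16, and the exact permutation test of 3 against 3 tumors cannot give a two-sided p below 0.1. Msrb1, the selenoprotein that reduces the R form, was at 22.7, 33.9 and 27.5 CPM in control and 23.8, 24.2 and 28.2 CPM in SS tumors. Msrb3, of the endoplasmic reticulum, was at 9.001, 11.3 and 9.92 CPM and at 9.71, 13.5 and 10.8 CPM. Neither B-type reductase parted the groups, with log2 fold changes of -0.14 ± 0.18 and 0.16 ± 0.21.

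**Figure D4:**
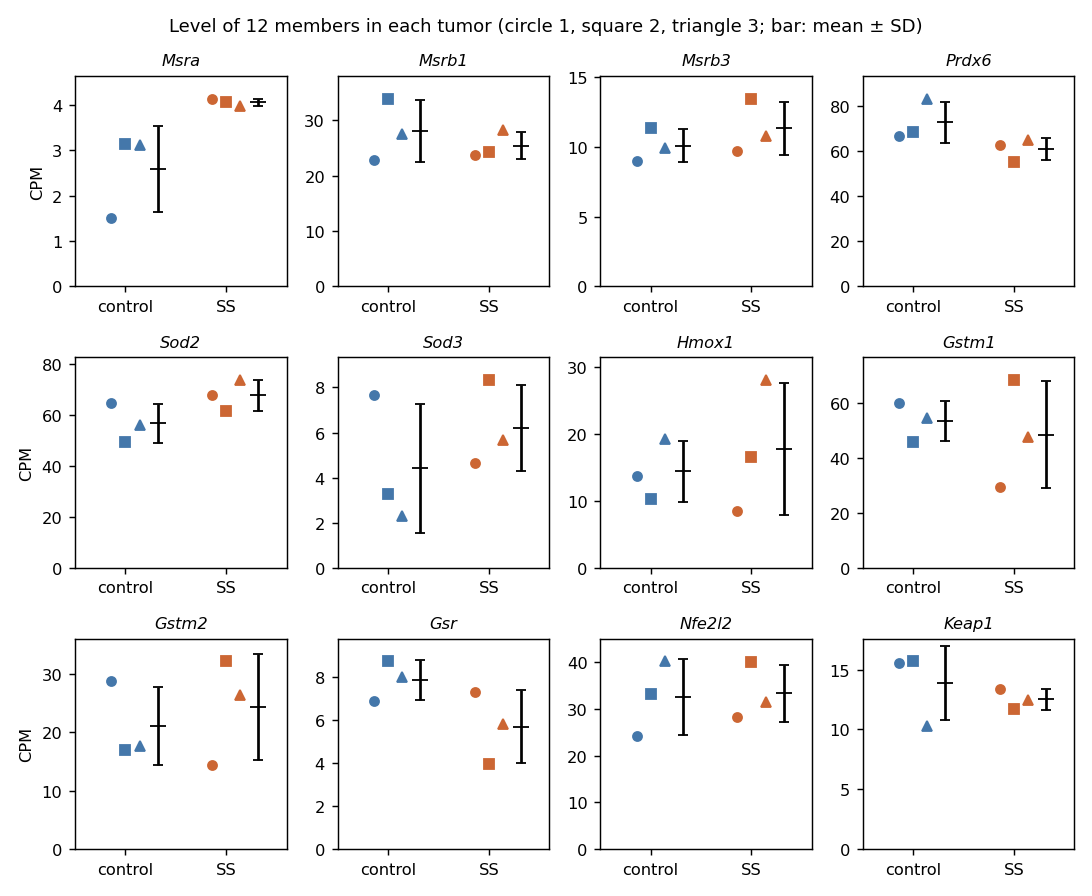
CPM of 12 members in each tumor (y axis, from 0), with circles, squares and triangles for tumors 1, 2 and 3, and bars for the mean and SD of each group of 3. Msra in SS tumors sits near 4 CPM above all controls, Prdx6 in SS tumors sits below all controls, and in the other 10 the groups overlap.

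Each tumor was high for some members and low for others. SS tumor 2 was highest for 8 and lowest for 8 of the 33 members tested, control tumor 2 highest for 9 and lowest for 2, and control tumor 1 highest for 2 and lowest for 9. SS tumor 3 was highest for 6 and lowest for 0. No tumor was on top for most members, and SS tumor 2, which held both many highest and many lowest values, was the smallest library with 8468914 counts.

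Transcript shares were read for the 10 members with more than 1 RefSeq transcript in the table. Gpx1 counts went mostly to the same transcript in all tumors, with 66.8%, 74.8% and 80.2% in control and 78.5%, 79.2% and 71.0% in SS tumors. The leading transcript of Txnrd1 held 78.1%, 65.3% and 47.6% of its counts in control and 45.5%, 58.8% and 78.1% in SS tumors. For Msrb1, the lesser transcript held 16.2%, 30.6% and 24.4% against 36.2%, 14.0% and 29.4%. In each of these the groups overlapped. Keap1 had the same shares in every tumor, with 91.5% on its leading transcript, so these shares hold no difference between tumors to read. Txnrd1 likewise had the same shares in control tumor 1 and SS tumor 3, and Gss in SS tumors 2 and 3, with 97.04% on 1 transcript.

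**Figure D5:**
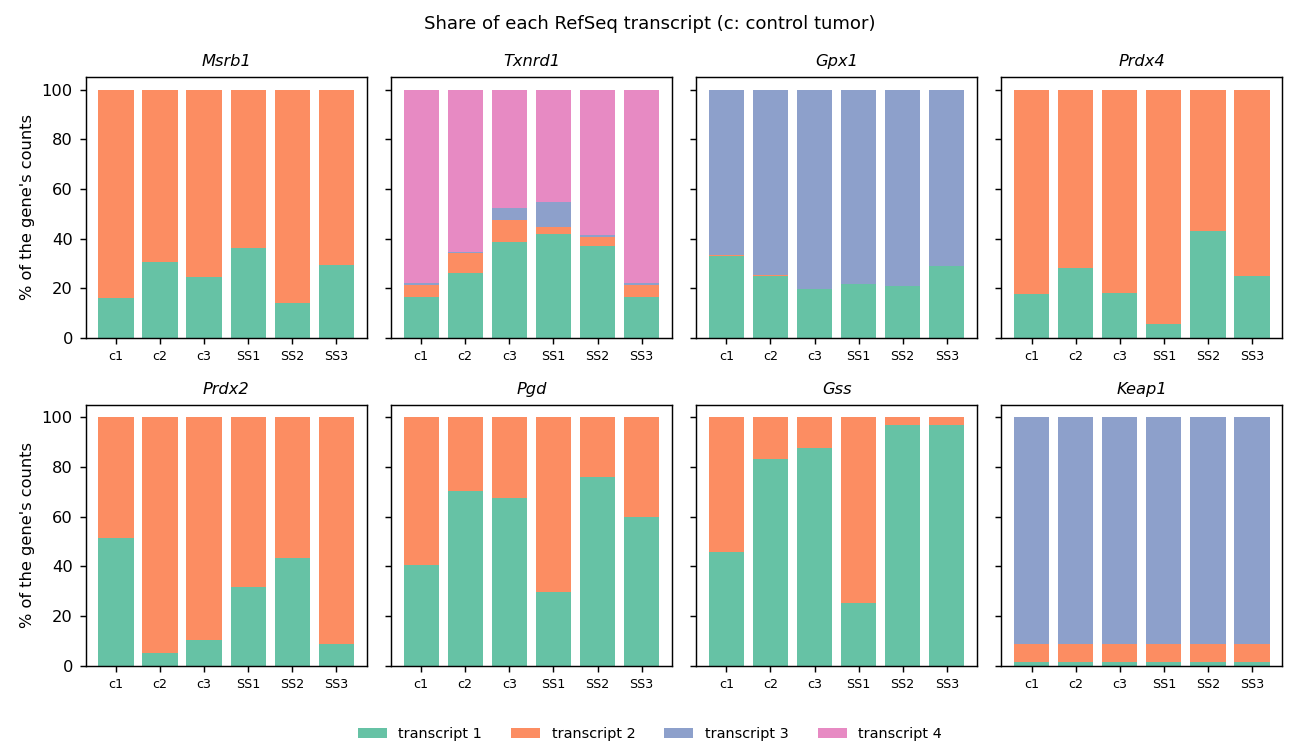
Share of each RefSeq transcript in the counts of 8 members (y axis, percent), with 1 bar a tumor (c1 to c3 control, SS1 to SS3 treated) and colours numbering the transcripts within a gene. The division of Prdx2, Prdx4 and Pgd differs among tumors of the same group, Gss is divided alike in SS tumors 2 and 3, and Keap1 in all 6.

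Genes around the members were read on 7 lists with 104 symbols, of which 93 were present and 79 tested, 36 fitted higher and 43 lower. At an unadjusted p under 0.05 in edgeR, 0 of the 79 were higher, beside 3.19% of all genes, and 4 were lower, beside 3.16% of all genes, and none passed adjustment. Among NRF2 partners and further NRF2 targets, 3 of 25 tested were among these 4. Bach2, a repressor related to the NRF2 competitor BACH1, was at 22.3, 18.5 and 14.6 CPM in control and 13.7, 11.0 and 12.5 CPM in SS tumors, and its log2 fold change was -0.57 ± 0.21. Akr1b8, an aldo-keto reductase, was at 15.6, 16.4 and 14.9 CPM in control and 10.4, 10.2 and 12.5 CPM in SS tumors, with -0.50 ± 0.17, and Cbr1, a carbonyl reductase, had -0.64 ± 0.26. Chac1, which degrades glutathione, was the 1 of 14 other glutathione genes tested, from 2.22 ± 1.03 CPM (SD) in control to 0.87 ± 0.41 CPM in SS tumors, with -1.37 ± 0.57. All 4 had an adjusted p of 0.771. Every SS tumor lay below every control tumor for these, for the autophagy receptor gene Sqstm1 (-0.36 ± 0.17, unadjusted p of 0.0696) and for 2 others of the 79, 7 in all (6.4% of all genes), and above for 4 (6.51% of all genes). On the list of NRF2 partners and targets these were Bach1, the competitor itself, with a log2 fold change of 0.92 ± 0.56, the small MAF gene Mafg with 0.56 ± 0.36 and the ubiquitin ligase subunit gene Rbx1 with 0.27 ± 0.14, none past the unadjusted threshold.

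The remaining lists held no gene at that threshold. These were 11 thioredoxin and peroxide genes tested, with a median log2 fold change of -0.0094, 11 NADPH-producing enzymes with -0.021, 9 subunits of the NADPH oxidases and xanthine dehydrogenase with 0.054, and 7 genes of selenoprotein synthesis with -0.044. Slc7a11, which imports cystine for glutathione synthesis, averaged 64.8 ± 9.02 CPM (SD) in control and 78.8 ± 10.8 CPM in SS tumors, and its log2 fold change was 0.28 ± 0.15, at an unadjusted p of 0.0958. Of the flavin monooxygenases and aldehyde oxidases, 5 of 7 were present and 2 tested, Fmo5 with 0.19 ± 0.72 and Aox1 with 0.37 ± 0.30, and Fmo1 reached 3.40 CPM in control tumor 1 and stayed below 1 CPM in the other 5.

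Markers of other cell types were read beside the members. The 5 leukocyte genes summed to between 294 and 314 CPM in control and between 287 and 354 CPM in SS tumors, with 4 fitted higher and 1 lower. The 8 macrophage genes summed to between 721 and 851 CPM in control and between 761 and 944 CPM in SS tumors. All 8 were fitted higher in SS tumors, with a median log2 fold change of 0.18. Both lists had 0 genes at an unadjusted p under 0.05 in edgeR. Of the dendritic cell genes (5 of 6 present, 3 tested) the integrin gene Itgax lay between 49.4 and 66.8 CPM in control and between 89.5 and 173 CPM in SS tumors, with a log2 fold change of 1.24 ± 0.24 and a p in edgeR of 0.001, or 0.679 once adjusted. It held most of the list's sum, which ran from 51.7 to 80.5 CPM in control and from 93.5 to 178 CPM in SS tumors. The other 2 tested, Zbtb46 and Ccr7, had -0.23 ± 0.61 and -0.03 ± 0.80, and the median of the 3 was -0.028. Xcr1, also on the list, had too few counts to be tested and stayed at or under 0.55 CPM. T cell genes (2 of 6 present) summed to between 8.03 and 47.8 CPM in control and between 4.31 and 20.7 CPM in SS tumors, and the 3 neutrophil genes present of 5 stayed under 5 CPM. Of the B cell genes 1 of 4 was present, Cd79a, seen only in control tumor 1 at 0.95 CPM. Fibroblast genes (5 of 5 present), epithelial genes (6 of 6) and proliferation genes (6 of 6) had overlapping sums in the groups, and of these 3 lists only Krt18 passed the unadjusted threshold, with a log2 fold change of -0.50 ± 0.12. The part of these cells in the values of the members was not tested.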

How the data were processed

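RNA of 6 C0321 tumors, 3 control and 3 SS, was read by the authors as paired ends of 75 nucleotides from stranded libraries of polyadenylated RNA. Estimated counts were deposited for 20648 RefSeq transcripts, not normalized, from which entries with very low values had been removed. Per the labels, CASAVA 1.8.1, Bowtie2 2.2.5, STAR 2.5.3a and mm10 were used. The counting tool and its strand setting are not given in the sources used here. The study's methods name quantile normalization and a t statistic, which were run as an alternative.

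Counts were summed by symbol (21 symbols held as dates were restored) and rounded, and genes were filtered with filterByExpr, scaled by TMM and compared with the quasi-likelihood test of edgeR 4.0.16 in R 4.3.3, with Benjamini-Hochberg adjustment over 10902 genes. The SE of a log2 fold change is its ratio to the root of the F statistic, and 95% intervals use the t quantile at the fit's degrees of freedom. With totals of 8468914 to 24441522 counts, 3 counts, the floor for a gene at 0, correspond to 0.123 to 0.354 CPM, and such floors cover counting error only. Alternatives were RLE, upper-quartile and no scaling factors, other filters, a replicate block, DESeq2 1.42.0, limma-voom 3.58.1 with sample weights, leaving out each tumor, and thinning to the smallest library, the last added after the data had been seen. The fit was tested on simulated data. Every member was named, and of the pathway lists the genes at an unadjusted p under 0.05, with Bach1, Mafg, Rbx1, Sqstm1, Slc7a11, Gpx3, Gpx7, 4 further Gst genes, Fmo1, Fmo5, Aox1 and the markers chosen after their values were seen. Members and lists were chosen with earlier results of these data known.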

Additional observations from a re-analysis of the deposited data

How the results depend on the processing

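In all alternatives 0 members passed adjustment, and over all genes DESeq2 called 37 where edgeR called 0, for which the cause was not tested. With each tumor left out in turn, between 0 and 2 members passed the unadjusted threshold, both of the 2 without control tumor 1. The members' median log2 fold change was -0.014 with no filter and -0.012 in DESeq2, which both include the 5 low-count members, and 0.020 and 0.024 there over the 33 alone. It was -0.034 to 0.057 with tumors left out. Of 526 comparisons of a member with an alternative, 42 changed sign. With libraries thinned these were Gclc (-0.012), Gclm (0.096), Txn1 (-0.052), Txnrd1 (0.0072), Srxn1 (-0.048), Pgd (0.016) and Msrb1 (0.013), and Prdx1 was at -0.013 with library totals alone and -0.0067 in limma-voom. With tumors left out, 18 members changed sign, with log2 fold changes of -0.043 to 0.21 (Cat), -0.088 to 0.21 (Gclc), -0.12 to 0.048 (Gclm), -0.31 to 0.44 (Gpx8), -0.48 to 0.12 (Gstm1), -0.046 to 0.49 (Gstm2), -0.18 to 0.047 (Gstp1), -0.22 to 0.63 (Hmox1), -0.27 to 0.014 (Msrb1), -0.14 to 0.21 (Nfe2l2), -0.11 to 0.13 (Pgd), -0.097 to 0.084 (Prdx1), -0.20 to 0.037 (Prdx2), -0.16 to 0.067 (Prdx4), -0.20 to 0.033 (Sod1), -0.13 to 0.37 (Srxn1), -0.0049 to 0.24 (Txn1), -0.15 to 0.099 (Txnrd1). The other 15 members tested kept their sign in every fit, but with tumors left out their values moved too, 0.078 to 0.28 (G6pdx), 0.0066 to 0.22 (Gpx1), 0.092 to 0.37 (Gpx4), -0.69 to -0.26 (Gsr), 0.098 to 0.41 (Gss), -0.62 to -0.24 (Gstm5), -1.32 to -0.44 (Gsto1), -0.32 to -0.039 (Keap1), 0.37 to 0.80 (Msra), 0.021 to 0.26 (Msrb3), 0.047 to 0.25 (Prdx5), -0.32 to -0.15 (Prdx6), 0.17 to 0.36 (Sod2), 0.19 to 1.14 (Sod3), -0.80 to -0.37 (Txnrd2). With the replicate block, edgeR had 643 genes and 0 members at the unadjusted threshold, a member median of 0.049, and no call changed. Deviations of tumors with the same number correlated at 0.116, 0.0205 and 0.0767, so the numbers were not read as pairs. The 3 tumors a group and the low counts of the 5 untested members limit what could be seen.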
